A study of Rattus norvegicus with 12 samples.

Results

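A set of 10 genes that carry the signal of opioid receptors into the cell were followed in the prefrontal cortex of young rats. They were chosen by name from the deposited gene table, which lists 22431 genes, and all 10 were present once and passed the filter that left 14170 genes for testing. They are the 5 inhibitory alpha subunits Gnai1, Gnai2, Gnai3, Gnao1 and Gnaz, the 2 beta-arrestins Arrb1 and Arrb2, and the 3 GIRK channel subunits Kcnj3, Kcnj6 and Kcnj9. The 12 libraries were poly(A) RNA of wild-type Rattus norvegicus, 4 per group, taken in early adolescence. The groups were saline controls, offspring exposed to oxycodone after birth (PNO) and offspring exposed in utero (IUO). Oxycodone, an opioid agonist, was given at 15 mg/kg by oral gavage, and the labels set postnatal day 21 as the last day of dosing without giving the days for each group. Each group drew on 2 dams with 2 animals per dam. The labels tie no animal to a dam, so litter mates count as independent here and the p-values can be too low; sex is not stated either.

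Opioid receptors belong to the receptors that couple to the Gi/o class of heterotrimeric G proteins. An activated receptor loads GTP onto the alpha subunit, which slows adenylyl cyclase, and releases the beta-gamma dimer, which opens GIRK potassium channels and restrains presynaptic calcium channels. Beta-arrestins bind the phosphorylated receptor, end its coupling to G proteins and take it into the cell. In the cortex the same transducers also serve GABA-B, cannabinoid, serotonin, adenosine and somatostatin receptors, so they are not specific to opioids.

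Total counts ran from 49227533 to 60672246 per library, and each member held between 298 and 26554 counts in every library. Slc17a7, the vesicular glutamate transporter of cortical excitatory neurons, measured between 413 and 735 FPKM (fragments per length of gene and depth of library) in every library. Markers of neighbouring regions were uneven within groups. The mean log2 CPM (counts scaled to library size) of 12 striatal genes reached 6.48 for PNO 2 and 5.98 for IUO 2, then 4.84 for IUO 1 and 4.63 for saline 2, and was 3.43 to 3.56 in the other 8 libraries. For 9 olfactory bulb genes it was 3.99 to 4.80 in PNO 1, PNO 3, PNO 4 and IUO 3, and 1.47 to 2.00 in the rest. IUO 4 stood apart in another way: it was the lowest of the 12 libraries at 20.05% of tested genes and the highest at 21.6%, against 12.8% at most for any other library in either direction.

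Per unit of gene length, Gnai2, Gnao1 and Kcnj9 were the most abundant of the 10 genes. Gnai2, the alpha subunit found in most cell types, averaged 64.6 ± 6.45 FPKM (SD over 12 libraries). Gnao1, which encodes the Go alpha subunit that is the most prominent G protein of the brain membrane, averaged 55.9 ± 9.28 FPKM. Kcnj9, the GIRK3 subunit, averaged 55.5 ± 6.85 FPKM. Each of the 3 was at or above the level of at least 92.9% of tested genes, and their ranges overlapped: Gnai2 exceeded Gnao1 in 10 of 12 libraries and Gnao1 exceeded Kcnj9 in 7 of 12.

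Gnaz, whose product Gz is insensitive to pertussis toxin, followed at 31.0 ± 5.68 FPKM, and Gnai1 at 22.9 ± 4.89 FPKM. Gnaz was above Gnai1 in all 12 libraries, although their ranges over libraries overlapped. Arrb2 at 12.2 ± 1.00 FPKM and Kcnj3, the GIRK1 subunit, at 11.8 ± 1.68 FPKM could not be ordered, with Arrb2 higher in 8 of 12. Gnai3 at 8.19 ± 1.16 FPKM was below Kcnj3 in 11 of 12 libraries. Kcnj6, the GIRK2 subunit, at 5.74 ± 0.394 FPKM and Arrb1 at 5.51 ± 2.13 FPKM were the lowest and also could not be ordered, each being higher in 6 of 12. This order rests on the gene lengths of the deposited table, which ranged from 1652 bases for Gnaz to 15959 bases for Kcnj6. In raw counts Kcnj6 exceeded Kcnj3 in every library, since the longer gene collects more reads.

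**Figure D1:**
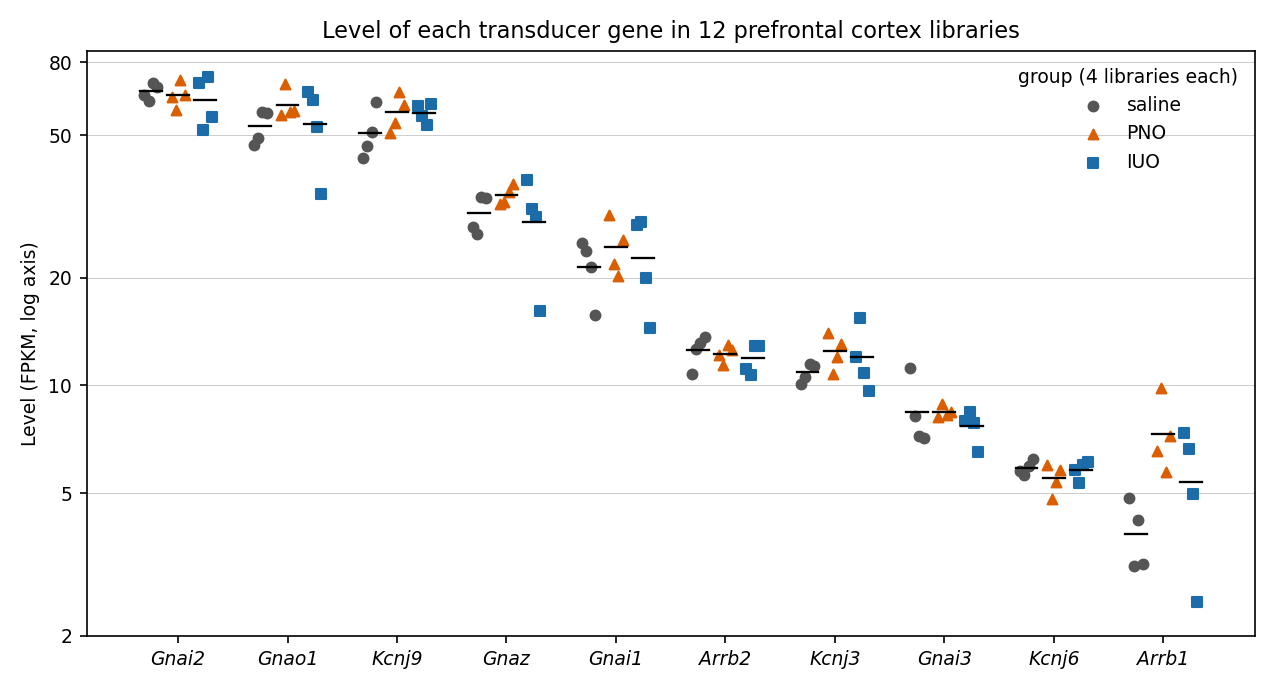
Level of each of the 10 genes in FPKM on a log axis, with genes ordered by their mean. Each point is 1 library (saline circles, PNO triangles, IUO squares, 4 libraries each) and each black line is a group mean. Gnai2, Gnao1 and Kcnj9 average between 55.5 and 64.6 FPKM, and Arrb1 has the widest scatter relative to its level.

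Within each family 1 or 2 genes held most of the summed level. Of the 5 alpha subunits, Gnai2 made up 35.7% ± 4.15 and Gnao1 30.5% ± 2.75 of the summed FPKM (SD, n = 12), followed by Gnaz at 16.8% ± 1.65, Gnai1 at 12.5% ± 2.18 and Gnai3 at 4.52% ± 0.707. Of the GIRK subunits, Kcnj9 made up 75.9% ± 2.53, Kcnj3 16.2% ± 2.15 and Kcnj6 7.94% ± 0.982. GIRK2 carries the signals that bring the channel to the membrane and can form channels alone, whereas GIRK1 and GIRK3 depend on partner subunits. Arrb2 made up 69.6% ± 9.32 of the arrestin sum and Arrb1 the remainder. The arrestin split was the most variable of the 3, with Arrb1 between 16.1% in IUO 4 and 46.3% in PNO 2.

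**Figure D2:**
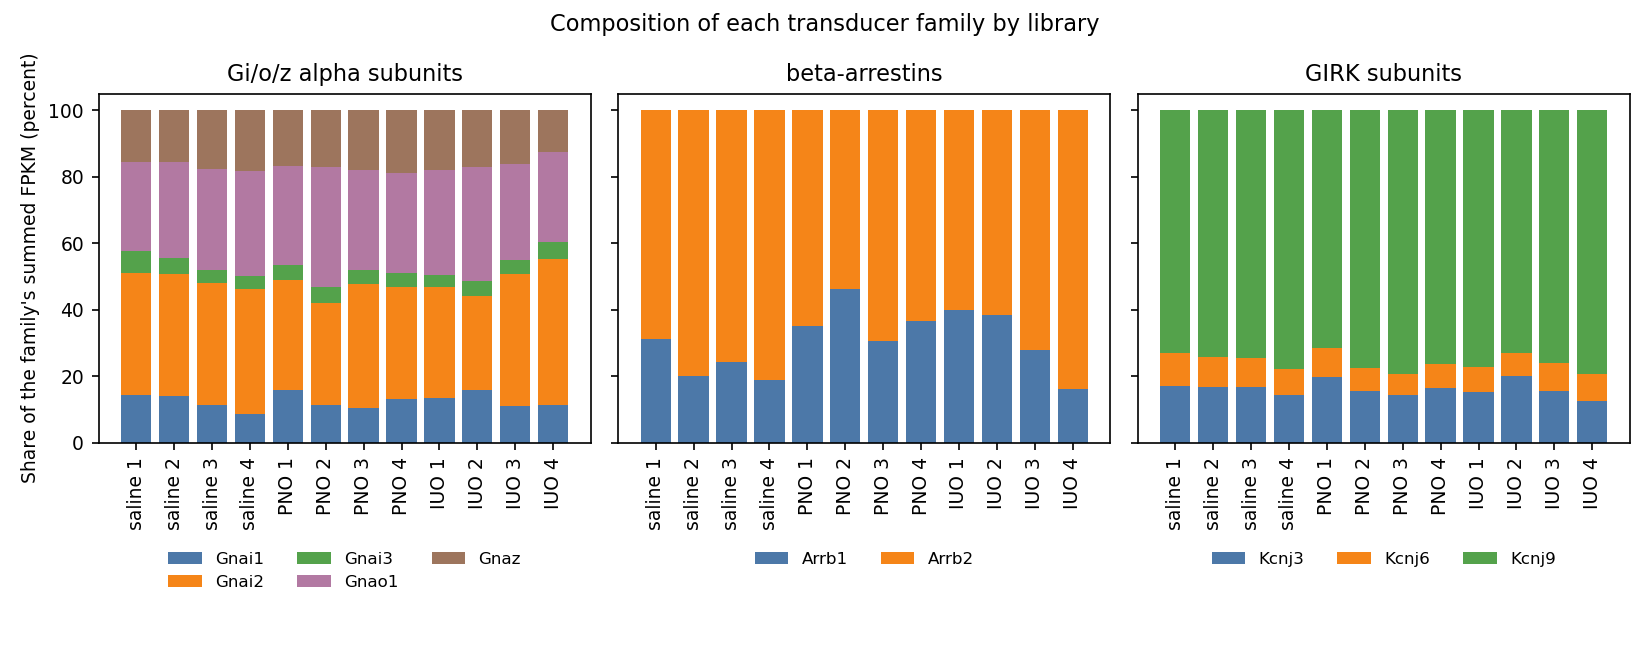
Share of each gene in the summed FPKM of its family, as stacked bars per library, for the 5 alpha subunits, the 2 beta-arrestins and the 3 GIRK subunits. Gnai2 and Gnao1 are the largest alpha segments in all 12 libraries and Kcnj9 the largest GIRK segment, while the Arrb1 segment runs from 16.1% to 46.3%.

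The comparison of PNO with saline asked what oxycodone after birth left in these transducers. None of the 10 genes differed past the threshold of an adjusted p under 0.05, and neither did any of the 14170 tested genes (0% called by edgeR's quasi-likelihood test). At an unadjusted p under 0.05 the count was 1 of 10 members, Arrb1, against 11% of all tested genes. Arrb1 was likewise the only member whose groups did not overlap in log2 CPM, a pattern seen in 9.84% of tested genes. Positive log2 fold changes numbered 6 of 10, against 51.2% of tested genes. The median log2 fold change of the members was 0.15, beside 0.0068 over all tested genes.

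Arrb1 encodes beta-arrestin-1, a scaffold for receptor desensitisation and for signalling through MAP kinases. It measured 14.0, 21.6, 12.5 and 15.8 CPM in PNO 1 to PNO 4, and 10.54, 6.82, 9.47 and 7.25 CPM in saline 1 to saline 4. All 4 PNO libraries were above all 4 saline libraries, and PNO 2 was the highest of all 12. The fitted log2 fold change was 0.91 (SE 0.28, 95% interval 0.30 to 1.52), with an adjusted p of 0.346 by edgeR. Without PNO 2 the log2 fold change was 0.73.

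The library with the most Arrb1, PNO 2, also had the highest striatal marker mean. In IUO the libraries with raised striatal markers, IUO 1 and IUO 2, likewise had the most Arrb1 of their group, at 15.9 and 14.5 CPM against 10.8 and 5.49 CPM. In saline the one such library, saline 2, had the least Arrb1 of its group. PNO 1, PNO 3 and PNO 4, with striatal means of 3.51 to 3.56, measured 12.5 to 15.8 CPM. Those 3 PNO libraries carry raised bulb markers, which no saline library does. Of the marker lists scored, those of 3 cell types also did not overlap between PNO and saline in mean log2 CPM, and the rest overlapped. Single genes without overlap made up 9.84% of tested genes. The mean log2 CPM of 5 inhibitory neuron markers was 6.13 to 6.38 in PNO and 5.77 to 6.11 in saline, that of 5 astrocyte markers 7.47 to 7.55 and 7.59 to 7.89, and that of 6 microglial markers 4.73 to 4.84 and 4.88 to 5.30. In summed FPKM, which lack the library scaling (TMM) that the CPM have, the same 3 lists overlapped. The sums in PNO and saline were 364 to 410 and 348 to 440 for inhibitory neurons. They were 235 to 286 and 234 to 329 for astrocytes, and 58.8 to 66.1 and 63.9 to 86.8 for microglia. The microglial overlap was only of PNO 1 and PNO 3, at 66.1 and 64.5 FPKM, with saline 3. The TMM factors of PNO 1, PNO 3 and saline 3 were 1.0224, 1.0088 and 0.9727, so this overlap may not hold on the CPM scale. The part of these markers in the Arrb1 difference was not tested. The log2 fold change of Arrb1 was 0.63 when PNO 2, IUO 1, IUO 2 and saline 2 were left out. With both region means as covariates it was 0.39. With a trend on gene length removed from each library it was 0.96. With PNO 2 alone standing for PNO, after PNO 1, PNO 3, PNO 4 and IUO 3 were left out, it was 1.33. Over the 23 alternatives the adjusted p ran from 0.081 to 1.00, so that none passed the threshold.

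**Figure D3:**
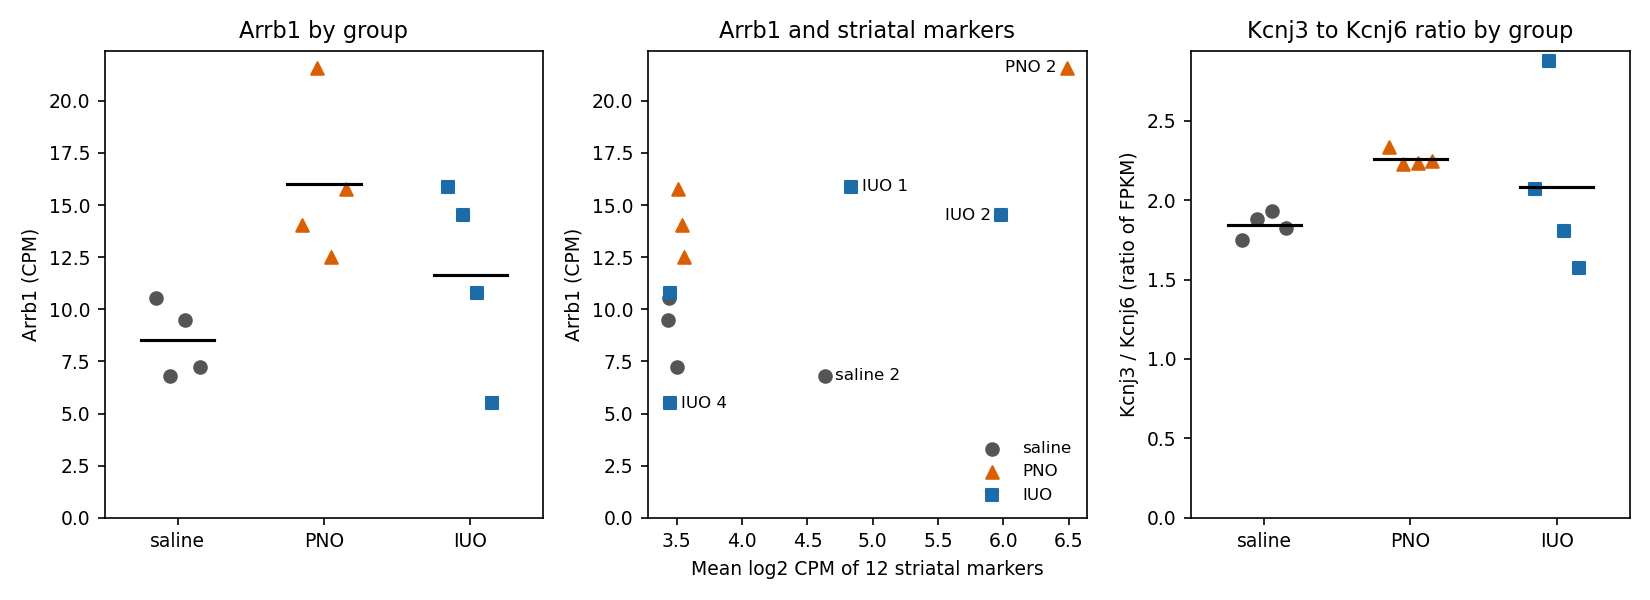
Left, Arrb1 in CPM by group. Middle, Arrb1 in CPM against the mean log2 CPM of 12 striatal markers, 1 point per library. Right, the ratio of Kcnj3 to Kcnj6 FPKM by group. Black lines are group means over 4 libraries. The 4 PNO libraries lie above the 4 saline libraries in the left and right panels, and saline 2 combines a raised striatal mean of 4.63 with 6.82 CPM of Arrb1.

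Arrb2, the other beta-arrestin and the one most studied in morphine tolerance, measured 68.3, 65.9, 74.7 and 72.0 CPM in PNO 1 to PNO 4 and 61.3, 72.0, 77.8 and 81.8 CPM in saline 1 to saline 4. The groups overlapped, and the log2 fold change was -0.06 (95% interval -0.28 to 0.16, adjusted p = 0.846 by edgeR). The ratio of Arrb2 to Arrb1 in FPKM averaged 1.75 ± 0.457 in PNO and 3.41 ± 0.948 in saline (SD, n = 4 each). It ran from 1.16 to 2.27 in PNO and from 2.21 to 4.30 in saline, so the groups met at their edges, with saline 1 just below PNO 3.

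No alpha subunit differed past the threshold between PNO and saline. For the 9 members other than Arrb1 the 95% intervals of the fold lay between 0.810 and 1.50. Gnao1 measured 367, 461, 383 and 385 CPM in PNO 1 to PNO 4, and 308, 322, 395 and 397 CPM in saline 1 to saline 4. Saline 3 and saline 4 were above all PNO libraries but PNO 2. The log2 fold change was 0.17 (95% interval -0.20 to 0.53, adjusted p = 0.721 by edgeR). Gnaz, which lies over the oppositely transcribed gene Rsph14 in the deposited table, measured 56.0 ± 3.59 CPM in PNO and 50.9 ± 7.47 CPM in saline (adjusted p = 0.811 by edgeR). Rsph14 held 736 counts over the 12 libraries against 35594 for Gnaz, and the labels do not say whether counting used strand.

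Gnai1 measured 54.7 ± 8.97 CPM in PNO and 49.1 ± 8.47 CPM in saline, Gnai2 266 ± 22.1 and 277 ± 20.5 CPM, and Gnai3 28.3 ± 1.36 and 28.8 ± 5.90 CPM (SD, n = 4 each). None of these 3 passed, with adjusted p between 0.788 and 0.961 by edgeR. Gnai3 was highest in saline 1 at 37.5 CPM, while the other 3 saline libraries lay between 25.01 and 27.4 CPM.

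Summed over the 5 alpha subunits the level was 191 to 194 FPKM in PNO and 170 to 190 FPKM in saline. These FPKM lack the library scaling (TMM) that the CPM have. The TMM factor was 0.9727 for saline 3 and 1.0224 for PNO 1. Saline 3 and PNO 1 bound the gap, at 190 and 191 FPKM, so the groups may overlap on the CPM scale. The sum was not tested. In FPKM, the PNO libraries were closer together in the sum (SD 1.20) than in Gnai2 (SD 5.29) or Gnao1 (SD 5.86) alone. The TMM factors of PNO ran from 0.9992 to 1.0224, a spread that the SD of the sum leaves out. The other groups went the other way. The SD of the sum, Gnai2 and Gnao1 was 8.59, 3.33 and 5.74 FPKM in saline. In IUO it was 34.3, 10.2 and 14.2 FPKM.

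Among the GIRK subunits, Kcnj3 measured 53.7, 42.3, 47.0 and 51.1 CPM in PNO 1 to PNO 4 and 39.1, 41.1, 46.4 and 46.3 CPM in saline 1 to saline 4. The groups overlapped, with a log2 fold change of 0.17 (SE 0.13, adjusted p = 0.642 by edgeR). Kcnj6 measured 93.9, 77.6, 85.9 and 92.8 CPM in PNO 1 to PNO 4 and 91.2, 89.3, 98.1 and 103 CPM in saline 1 to saline 4, again overlapping, with a log2 fold change of -0.13 (SE 0.08, adjusted p = 0.590 by edgeR). Kcnj9 measured 188 ± 23.8 CPM in PNO and 168 ± 30.8 CPM in saline (adjusted p = 0.634 by edgeR).

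The ratio of Kcnj3 to Kcnj6 separated the groups where neither gene alone did. In FPKM it was 2.33, 2.23, 2.23 and 2.24 in PNO 1 to PNO 4 and 1.75, 1.88, 1.93 and 1.83 in saline 1 to saline 4. It was chosen after the values of all 45 member pairs were seen, and 7 of the 45 ratios did not overlap between PNO and saline, against 8.87% of all pairs of tested genes listed above 0 FPKM in every library. The 45 ratios share genes and are not independent, and no test was made on them. Of these 7, 4 contained Arrb1, and the others were Kcnj3 to Kcnj6, Gnao1 to Arrb2 and Gnaz to Arrb2. In IUO the same ratio ran from 1.57 in IUO 4 to 2.88 in IUO 2, wider than both other groups together. Log2 fold changes of PNO against saline followed gene length across the 13863 genes with a length (Spearman's rho 0.35, a description across genes, which are not independent), and Kcnj6 is the longest member. Its fold change with that trend removed was -0.28, at an unadjusted p under 0.05 but not past the threshold.

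The comparison of IUO with saline asked the same of exposure in utero. No member and no gene passed (0 of 10, and 0% of tested genes by edgeR), and the count at an unadjusted p under 0.05 was 0 of 10, against 4.02% of tested genes. The groups overlapped for all 10, where 2.18% of tested genes did not overlap. Positive log2 fold changes numbered 4 of 10, against 56.4% of tested genes. The members' median was -0.02, beside 0.02 over all tested genes. For the 9 members other than Arrb1 the 95% intervals of the fold lay between 0.695 and 1.41.

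Arrb1 was again the member with the largest fitted difference. It measured 15.9, 14.5, 10.8 and 5.49 CPM in IUO 1 to IUO 4, so that 3 libraries were above all saline libraries and IUO 4 was below them all. The log2 fold change was 0.45 (95% interval -0.16 to 1.06, adjusted p = 0.998 by edgeR), and 0.69 without IUO 4. Of these, IUO 1 and IUO 2 had striatal means of 4.84 and 5.98. With both region scores as covariates the log2 fold change was 0.0081. When those libraries, PNO 2 and saline 2 were left out the sign turned, to -0.16, in a fit where IUO 3 and IUO 4 alone stood for the group.

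IUO 4 was the lowest of the 12 libraries for 6 of the 10 members, Gnai1, Gnai3, Gnao1, Gnaz, Arrb1 and Kcnj3. It was the lowest at 20.05% of all tested genes. Gnao1 measured 430, 412, 346 and 229 CPM in IUO 1 to IUO 4. Gnaz measured 61.4, 51.3, 48.7 and 27.02 CPM in the same order, and Gnai1 62.5, 64.6, 44.7 and 33.0 CPM. Relative to the mean of the other 3 IUO libraries, IUO 4 held 0.578 of Gnao1, 0.502 of Gnaz, 0.576 of Gnai1, 0.400 of Arrb1 and 0.768 of Kcnj3. The others were nearer to the rest of their group: the ratio was 0.819 for Gnai3, 0.884 for Gnai2, 1.13 for Arrb2, 1.09 for Kcnj6 and 1.09 for Kcnj9.

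IUO 4 was also the lowest library in the mean of 4 pan-neuronal markers, at 8.05 log2 CPM against 8.18 to 8.78 elsewhere. Its Slc17a7 level of 413 FPKM was likewise the lowest, with 502 to 735 FPKM in the other 11 libraries, and so was its cortical excitatory mean of 6.60. By summed FPKM the pan-neuronal markers were not lowest in IUO 4, at 1022 against 917 in saline 1, 1008 in PNO 2 and 1020 in PNO 3. Inhibitory neuron markers averaged 5.96 log2 CPM in IUO 4, above 5.77 in saline 1, and their summed FPKM of 494 was the highest of all libraries. The microglial mean of 5.27 in IUO 4 was the second highest, after 5.30 in saline 1. In tissue RNA fewer cells of a type and less RNA per cell cannot be told apart, and the part of these markers in the member values was not tested. Without IUO 4 the IUO fold changes were 0.16 for Gnao1 in place of -0.0038, 0.08 for Gnaz in place of -0.11 and 0.22 for Gnai1 in place of 0.06, all on the log2 scale and none past the threshold.

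**Figure D4:**
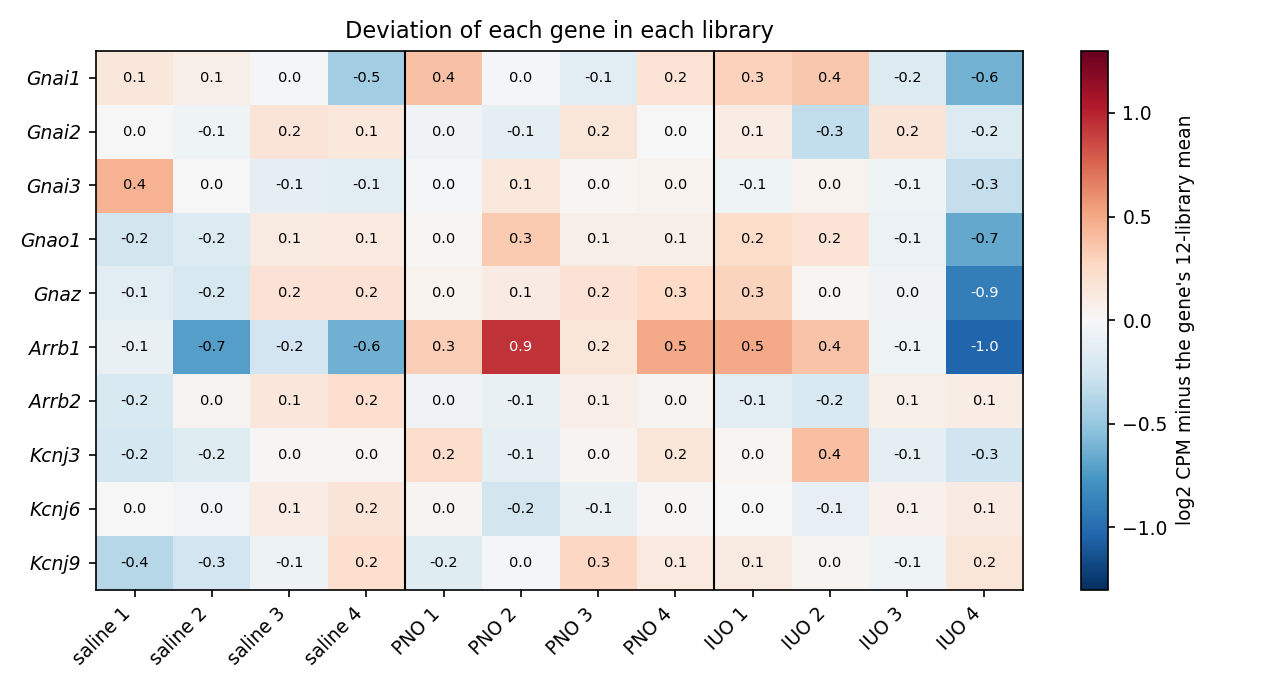
Deviation of log2 CPM from each gene's mean over the 12 libraries, with genes in rows and libraries in columns, and vertical lines between the groups. The IUO 4 column holds the lowest value of 6 genes, and the Arrb1 row is low across saline and high across PNO.

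For Gnai2 and the GIRK subunits no IUO difference passed the threshold either. Gnai2 measured 257 ± 40.2 CPM in IUO and 277 ± 20.5 CPM in saline, with IUO 2 the lowest of all libraries at 213 CPM. Kcnj9 measured 195, 184, 173 and 201 CPM in IUO 1 to IUO 4, all within the saline range of 139.5 to 209.7 CPM. Kcnj3 was 46.8 ± 9.58 CPM in IUO, with its highest level of all libraries in IUO 2 at 60.2 CPM, and 43.2 ± 3.69 CPM in saline. Kcnj6 was 92.9 ± 5.78 against 95.5 ± 6.45 CPM, Arrb2 68.4 ± 7.04 against 73.2 ± 8.93 CPM and Gnai3 25.8 ± 2.61 against 28.8 ± 5.90 CPM. The adjusted p of each was 0.998 by edgeR.

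The direct comparison of IUO with PNO also gave 0 of 10 members past the threshold (0% of tested genes by edgeR). No member had an unadjusted p under 0.05, where 6.73% of tested genes did, and no member's groups were apart, where 3.63% of tested genes were. Of the 10 log2 fold changes 2 were positive, and 50.8% of all tested genes were positive. The largest was that of Arrb1 at -0.45 (95% interval -1.06 to 0.15, adjusted p = 0.720 by edgeR), followed by Gnaz at -0.25 (95% interval -0.66 to 0.16, adjusted p = 0.743 by edgeR). When PNO 2, IUO 1, IUO 2 and saline 2 were left out, 5 members had an unadjusted p under 0.05, with log2 fold changes of -0.79 for Arrb1, -0.58 for Gnaz, -0.54 for Gnai1, -0.40 for Gnao1 and -0.33 for Kcnj3. In that fit 1927 of 14170 genes did, IUO 3 and IUO 4 alone stood for IUO, and the smallest adjusted p of a member was 0.313 by edgeR. The 2 exposure groups share the saline libraries as controls, so their fold changes against saline are not independent of each other.

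**Figure D5:**
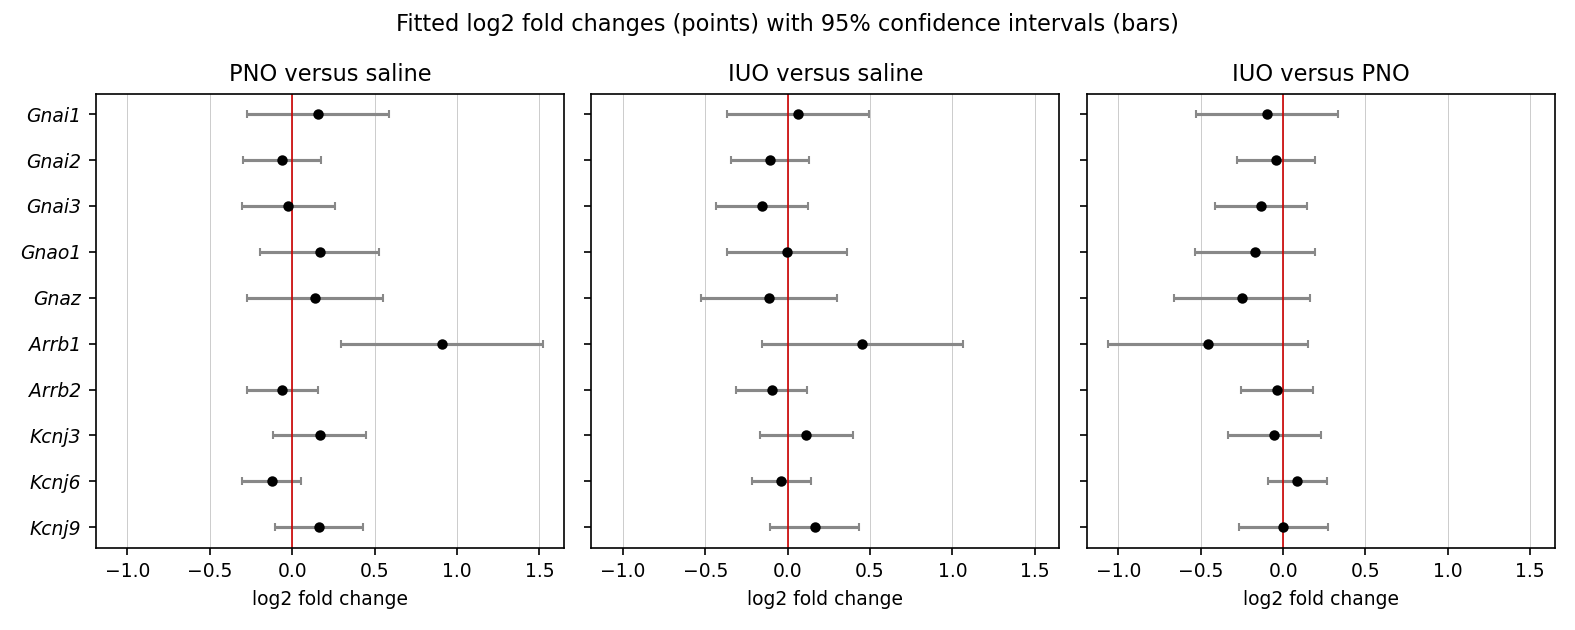
Log2 fold change of each gene (points) with its 95% confidence interval (bars) from the edgeR fit over all 12 libraries, for the 3 comparisons. All intervals include 0 apart from that of Arrb1 in PNO against saline, which runs from 0.30 to 1.52 before any adjustment for the number of genes.

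The members differed in how much they varied between animals of a group. The pooled SD of log2 CPM within groups was 0.11 for Kcnj6, the steadiest member, 0.14 for Arrb2, 0.16 for Gnai2 and 0.19 for both Gnai3 and Kcnj9, below the median of 0.21 over all tested genes. Kcnj3 lay just below that median at 0.20. It was 0.28 for Gnao1, 0.33 for both Gnai1 and Gnaz and 0.48 for Arrb1, above it. Arrb1 was more variable than 89.4% of tested genes and Kcnj6 more than 8.12%.

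Across the 12 libraries the closest pair of members was Gnao1 and Gnaz, with Pearson's r of 0.91 in log2 CPM, and 0.75 without IUO 4. Gnao1 and Arrb1 followed at 0.76, and 0.62 without IUO 4. The likeness of Gnai1 to Gnao1 rested on IUO 4: it was 0.49 over 12 libraries and 0.0047 without that library. Arrb1 ran opposite to Kcnj6 (r = -0.68) and to Arrb2 (r = -0.57), and Gnai1 opposite to Arrb2 (r = -0.72). These values describe 12 libraries that share dams, depth and dissection, over 45 pairs with a median r of 0.15. No p-value is attached to them.

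For each member the nearest of all tested genes were listed by Pearson's r in log2 CPM over the 12 libraries, which is the highest of many candidates and so is high by selection. The gene most like Arrb1 was Ppp1r12b, a myosin phosphatase subunit (r = 0.98, and 0.97 without IUO 4), then Kctd3 (r = 0.97). Gnao1 was nearest to Slc4a8, a sodium-dependent bicarbonate transporter of neurons (r = 0.97), and Znfx1 (r = 0.97). Gnaz was nearest to Cog7 and Mfsd12 (r = 0.97 each), and Gnai1 to Cep170 and Wdr44 (r = 0.93 each). Gnai2 was nearest to Phf5a (r = 0.92) and Rhobtb1 (r = 0.91), and Gnai3 to Rrm1 (r = 0.88) and Dnajc27 (r = 0.87). Arrb2 was nearest to Ppp1r37 and to Dbn1, the actin-binding protein drebrin of dendritic spines (r = 0.93 each). Kcnj3 was nearest to Pcdhb3 (r = 0.93) and the neuronal splicing factor Nova1 (r = 0.89), Kcnj6 to Tafa5 (r = 0.94) and Nags (r = 0.90), and Kcnj9 to Fbxw5 (r = 0.89) and Dennd6b (r = 0.86).

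Of 72 further genes of the pathway on 7 lists, 67 were in the table and 56 were tested. In each of the 3 comparisons 0 of the 56 passed the threshold by edgeR. At an unadjusted p under 0.05 there were 5 in PNO against saline, 1 in IUO against saline and 1 in IUO against PNO, with 11%, 4.02% and 6.73% of all tested genes as background. The median log2 fold changes were 0.07, 0.04 and -0.08, beside 0.0068, 0.02 and 0.0036 over all tested genes. In PNO against saline 3 of the 56 were higher and 2 lower without overlap in log2 CPM, beside 9.84% of all tested genes without overlap in either direction.

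Among the beta and gamma subunits 0 of 12 passed. Gng4 measured 13.6 ± 3.97 CPM in PNO and 4.95 ± 1.35 CPM in saline (SD, n = 4 each, adjusted p = 0.355 by edgeR), without overlap. Its levels were 13.1 to 16.8 CPM where bulb markers were raised (4 libraries) and 1.31 to 8.19 CPM in the other 8. Gng11 measured 5.92 ± 1.297 CPM in PNO and 9.47 ± 2.01 CPM in saline (adjusted p = 0.462 by edgeR). The gamma subunit gene Gng3, an abundant neuronal one, measured 300 ± 41.0 CPM in PNO and 339 ± 44.6 CPM in IUO (adjusted p = 0.731 by edgeR).

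Of the chaperones and activators of alpha subunits 0 of 7 passed. Gpsm1, a guanine nucleotide dissociation inhibitor that binds GDP-loaded Gi alpha, measured 137 ± 35.5 CPM in PNO and 81.3 ± 7.42 CPM in saline (adjusted p = 0.355 by edgeR). Like Gng4 it was higher in those 4 libraries, at 131 to 171 CPM, than in the other 8, at 67.2 to 91.0 CPM. Ric8b, a folding chaperone of Gs and Golf alpha, measured 23.6 ± 5.53 CPM in PNO and 18.1 ± 0.577 CPM in saline (adjusted p = 0.467 by edgeR). It was highest in PNO 2 at 31.4 CPM and IUO 2 at 27.1 CPM, the libraries with the highest striatal means. Gprin1, which binds activated Gi/o alpha in growth cones, measured 190 ± 20.8 CPM in PNO, 159 ± 14.2 CPM in saline and 150 ± 24.2 CPM in IUO (adjusted p = 0.450 for PNO against saline and 0.714 for IUO against PNO by edgeR).

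The other alpha subunits gave 0 of 7. Gna15 measured 3.27 ± 0.637 CPM in PNO and 4.96 ± 0.752 CPM in saline, without overlap (adjusted p = 0.355 by edgeR). Gnal, the Golf subunit of striatal and olfactory neurons, was highest in PNO 2 at 168 CPM and in IUO 2 at 99.7 CPM, the libraries with the highest striatal means. Gnas, the stimulatory counterpart of the inhibitory subunits, measured 1343 ± 113 CPM in IUO and 1489 ± 160 CPM in saline (adjusted p = 0.998 by edgeR).

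Of the receptor kinases, which phosphorylate the receptor before arrestin binds, 0 of 5 passed. Grk2, the kinase best known for opioid receptor desensitisation, measured 206 ± 29.7 CPM in IUO and 233 ± 45.6 CPM in saline (adjusted p = 0.998 by edgeR). Grk3 measured 4.29 ± 1.499 CPM in PNO and 2.73 ± 0.934 CPM in saline (adjusted p = 0.543 by edgeR). The visual arrestins Sag and Arr3 and the GIRK4 gene Kcnj5 were below the filter. Among GIRK partners 0 of 4 passed, and Kctd8, an auxiliary subunit of GABA-B receptors, ran from 9.21 to 10.86 CPM in PNO and from 4.41 to 9.19 CPM in saline (adjusted p = 0.464 by edgeR).

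Of 24 receptors that couple to Gi/o, 21 were tested and 0 passed. The cannabinoid receptor gene Cnr1 measured 120 ± 11.8 CPM in PNO, 119 ± 8.19 CPM in IUO and 137 ± 17.2 CPM in saline (adjusted p = 0.516 and 0.998 by edgeR). The muscarinic receptor genes Chrm4 and Chrm2 measured 51.2 ± 11.5 and 16.9 ± 3.45 CPM in PNO, and 38.5 ± 8.39 and 13.5 ± 1.503 CPM in saline (adjusted p = 0.459 and 0.495 by edgeR). The somatostatin receptor gene Sstr2 measured 17.5 ± 1.36 CPM in IUO and 21.1 ± 2.30 CPM in saline (adjusted p = 0.998 by edgeR). The mu and kappa opioid receptor genes Oprm1 and Oprk1 were below the filter.

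By position in the deposited table, which names no genome build, the 10 members lie on 10 different chromosomes. Arrb1 spans chromosome 1 from 153838078 to 153904061 on the plus strand, and Kcnj6, the longest locus, chromosome 11 from 34061708 to 34308758 on the minus strand. Gnao1 lies on chromosome 19 from 11035956 to 11192493, minus strand, and Gnaz on chromosome 20 from 13644640 to 13669907, minus strand. The levels are gene totals, so exons, introns and transcript variants, 1 to 3 per member, were not told apart.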

How the data were processed

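The labels describe stranded poly(A) TruSeq libraries of rat prefrontal cortex, and the submitters' processing notes name HISAT2 and StringTie. No source used here gives versions, genome build, annotation or strand setting. Per the file headers, the deposited table holds whole-number counts per gene and library. It also holds the authors' FPKM, which were proportional to the counts (CV of their ratio over libraries at most 1.19%). That ratio gave the gene lengths.

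Genes whose mean FPKM reached 0.5 were kept. Counts were fitted with edgeR 4.0.16 (R 4.3.3, quasi-likelihood, TMM) over all 12 libraries with 1 mean per group. P-values were two-sided and Benjamini-Hochberg adjusted over all 14170 genes. The SE is the log2 fold change divided by the root of F. Intervals use edgeR's total degrees of freedom (13.2 for each member), which add prior to residual degrees of freedom. Log2 CPM used a prior count of 2. A repeated symbol (Gnas) was read from its row with the highest mean FPKM.

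The members and lists were chosen with earlier results of these data known. All members were named, with up to 3 genes of smallest p per pathway list and comparison (a selection of these is printed) and the 2 genes most like each member. Fits were tested on simulated data. Alternatives used DESeq2 1.42.0, limma 3.58.1, other scaling and filters, covariates and omitted libraries. A fit that dropped all but 1 library of a group assumed that it varied like the others. One marker gene is not reported here.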

Additional observations from a re-analysis of the deposited data

How the results depend on the processing

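Of 690 member fold changes under the alternatives, 644 kept their sign, 46 turned and 0 crossed the threshold (smallest adjusted p 0.081, Arrb1 in PNO against saline without IUO 4; edgeR). Genes called by DESeq2 were 117 in PNO against saline, 11 in IUO against saline and 8 in IUO against PNO. For PNO against saline limma called 1 and a fit of only the 2 groups 11. Omitting PNO 2, IUO 1, IUO 2 and saline 2 (raised striatal markers) the counts were 0, 4 and 3 in the same order, and without the 4 with raised bulb markers 3, 1 and 3. Leaving out 1 library gave 0 to 19 genes for PNO against saline (19 without IUO 4, 1 without saline 2), 0 to 1 for IUO against saline (1 without saline 2 or IUO 2) and 0 to 1 for IUO against PNO (1 without PNO 3 or IUO 2). Members whose groups did not overlap then numbered 1 to 2, 0 to 1 and 0 to 1. The higher counts came without PNO 2, without saline 4 or IUO 4, and without IUO 1 or IUO 2. Groups of fewer libraries overlap less readily. The matching share of all tested genes is not given, so these counts show nothing particular to the members. The cause of these shifts was not tested.

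Apart from Arrb1 in IUO against saline (-0.16 without the striatal libraries), signs turned only for members with main log2 fold changes of 0.17 or less in size. In PNO against saline 0.17 was the largest size of any member but Arrb1. Gnai1, Gnai3, Gnao1 and Gnaz, at 0.16, -0.02, 0.17 and 0.14 in the main fit, each turned to a value larger in size under some alternative. For PNO against saline, covariates gave -0.17 for Gnai1, -0.18 for Gnao1 and -0.29 for Gnaz, omitting the bulb libraries gave -0.00033 for Gnai1, 0.052 for Gnai3 and -0.045 for Kcnj3, and limma gave 0.020 for Gnai3. For IUO against saline, covariates gave -0.19 for Gnai1 and 0.027 for Kcnj6, and omitting the striatal libraries gave -0.29 for Gnai1, 0.016 for Arrb2 and -0.13 for Kcnj3. For IUO against PNO, omitting the bulb libraries gave 0.11 for Gnai1, 0.0043 for Gnai2, 0.016 for Arrb2 and 0.19 for Kcnj3. Covariates gave 0.030 for Gnai2 and -0.061 for Kcnj9, the length trend 0.019 for Arrb2, and omitting the striatal libraries 0.055 for Arrb2 and -0.035 for Kcnj9. Kcnj9 was -0.00018 under DESeq2 and RLE scaling and -0.011 with a mean FPKM of at least 2.

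Leaving out 1 library, Gnai3 ran from -0.098 to 0.13 in PNO against saline. In IUO against saline Gnai1 ran from -0.070 to 0.22, Gnao1 from -0.11 to 0.16, Gnaz from -0.27 to 0.080 and Kcnj3 from -0.031 to 0.20. In IUO against PNO Gnai1 ran from -0.23 to 0.065, Gnai2 from -0.11 to 0.035, Arrb2 from -0.085 to 0.011, Kcnj3 from -0.20 to 0.033 and Kcnj9 from -0.072 to 0.083.

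With the replicate number as a block, 0 genes and 0 members were called in each comparison. Deviations of same-numbered libraries correlated at 0.054 to 0.12 (PNO and saline), 0.015 to 0.142 (IUO and saline) and 0.058 to 0.411 (IUO and PNO), all positive. Of 8 libraries in each comparison, 4, 4 and 5 correlated best with their own number, out of 4 candidates each. The labels name no pairs, so the main fit treated the libraries as unpaired. Whether same-numbered libraries share a batch or litter was not tested.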

Other observations

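Gnb1, the beta subunit gene most often paired with Gi/o alpha, fell into separate ranges that did not follow the groups. It measured 556 CPM in PNO 1, 542 CPM in PNO 4 and 555 CPM in IUO 1, and 149 to 264 CPM in the other 9 libraries. Its group means were 397 ± 177 CPM in PNO, 283 ± 184 CPM in IUO and 205 ± 37.9 CPM in saline (SD, n = 4 each, adjusted p = 0.417 for PNO against saline and 0.998 for IUO against saline by edgeR). The table gives gene totals only, so where in the gene the reads of those 3 libraries lie, and whether they differ in mapping, was not tested. Gnb1 was singled out after its values were seen.

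The delta opioid receptor gene Oprd1 measured 1.67 ± 0.328 CPM in IUO and 1.03 ± 0.504 CPM in saline (SD, n = 4 each, adjusted p = 0.998 by edgeR).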
